A study of Mus musculus with 24 samples.

Results

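The early response of the mouse mammary gland to progesterone was read from the pooled arrays of 4, 16 and 28 h after the first injection. These are 18 of the 24 arrays of the study, 9 from mice given progesterone and 9 from mice given oil, and they were chosen by their time labels alone. The genes described most closely are those that differed in the same direction at all 3 times. The mice were nulliparous BALB/c females, ovariectomized at 6 weeks of age to remove the ovarian source of the hormone and rested for 2 weeks. They were injected under the skin daily with 1 mg of progesterone in 100 µl of sesame oil, or with the oil alone. The 6 groups used for the early response are thus oil and progesterone at 4 h, oil and progesterone at 16 h, and oil and progesterone at 28 h, and the groups of 76 h served only for a later reading. Each array carried pooled RNA of 5 mice and each group has 3 arrays, or 15 mice. On a daily schedule the mice of 28 h may have had more than 1 injection, and time and dose number cannot be told apart. Each time has oil arrays of its own, so that the 3 differences between progesterone and oil share no array.

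Progesterone acts through its receptor, a transcription factor that binds DNA once the hormone is bound. In the mammary gland the receptor is found in a subset of luminal cells, the hormone-sensing cells, and much of the response of the neighbouring basal and progenitor cells is relayed by factors that the hormone-sensing cells secrete, among them WNT4 and the cytokine RANKL (gene Tnfsf11). Cell division in the epithelium follows after a delay, so the first day after the hormone precedes the proliferative phase.

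RNA of whole glands was read on Affymetrix Mouse Genome 430 2.0 arrays, and the value of a gene is the linear intensity of its brightest probe set with a single gene symbol. Array medians lay between 62.8 and 70.2, and the arrays of a group correlated on average at r = 0.972 to 0.989 across genes. In whole tissue, fewer cells of a type and less RNA per cell cannot be told apart. The defining markers of the tissue's cell types were present. Krt14 of basal cells, Krt18 of luminal cells, Adipoq of fat cells, Ckm of skeletal muscle, Cd3e and Cd79a of lymphocytes, Csf1r of macrophages and Cdh5 of endothelium lay above the array median on all 18 arrays. Since an array is a pool, a p-value rests on the spread between pools of mice. In the fit of all early arrays with time as a block, changes of the difference between the times count as error as well. The oil arrays of 28 h stood apart from the other oil arrays in some genes, such as the beta-casein gene Csn2, with 1194, 575 and 212 there and 4.59 to 12.9 on the oil arrays of 4 and 16 h. The summed intensity of 19 skeletal muscle markers was 16854 to 26428 in oil at 28 h and 46084 to 85159.5 in oil at 4 and 16 h. Counts without 28 h are given for the genes moved alike and for the gene lists. The 3'/5' ratio of the control probes, a sign of RNA quality, differed by 0.0507 (log2) for actin and 0.0851 for Gapdh between progesterone and oil (exact permutation within times, two-sided, p = 0.124 and p = 0.175). At 4 h the difference was 0.132 for actin and 0.278 for Gapdh. The actin ratios of 4 h were 0.506 to 0.590 (log2) with progesterone and 0.408 to 0.437 in oil, without overlap, while those of Gapdh overlapped. The part of this shift in the differences of 4 h was not tested.

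In the pooled comparison, progesterone against oil with time as a block, 277 of 12352 genes tested (2.24%) passed an adjusted p of 0.05 with limma. Of these, 106 rose (0.858%) and 171 fell (1.38%). The split of rises and falls depends on the scaling of the arrays. It was 106 to 171 with the values as deposited, 144 to 82 with quantile normalization and 94 to 290 with every array centred on its median. The median difference over all genes was -0.03 on the log2 scale and 39.5% of genes had a positive one. At the threshold, Cd164 and Was lay just inside (adjusted p = 0.0496 and 0.0498) and Dennd3 just outside (adjusted p = 0.0501).

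Most of these differences were small, and most of the genes were not called at any single time. The median size over the 277 genes was 0.40 on the log2 scale, 23 genes changed at least 2-fold, and 184 genes were called at no single time. The same arrays fitted with a mean per group called 15 genes 4 h after the first injection (0.121%), then 27 (0.219%) and finally 218 at 28 h (1.76%). The sign was the same at all 3 times for 273 of the 277 (98.6%), against 33.5% of all genes tested. The pooled test favours such genes, so the share is a description of the called genes.

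A stricter set was formed by the genes whose 3 progesterone arrays lay beyond all 3 oil arrays of their time, in 1 direction, at each of the 3 times. This held for 58 genes (0.47% of those tested), and 53 of them were also called in the pooled comparison. These 53, of which 29 rose and 24 fell, are called moved alike below. Their size ran from 0.22 to 1.76 on the log2 scale (median 0.63), and 11 of them changed at least 2-fold, 6 upward and 5 downward. Differences of even size were common but not general. The smallest of the 3 differences was at least 0.5 of the largest in 35 of the 53, with a median ratio of 0.57, against 0.46 over all called genes and 0.22 over all genes tested. The choice of the 53 leaves out genes with a difference of 0 or of mixed sign at any time, which raises this ratio. It is a description of the genes chosen. The largest difference fell at 4 h for 16 of the 53, at 16 h for 11 and at 28 h for 26. For 18 of the 53, 12 rising and 6 falling, all 9 progesterone arrays lay beyond all 9 oil arrays whatever their time, which was so for 18 of all genes tested (0.146%). Such a gene is apart within each time by construction, so the 18 had to lie among the 58 genes without overlap.

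**Figure D1:**
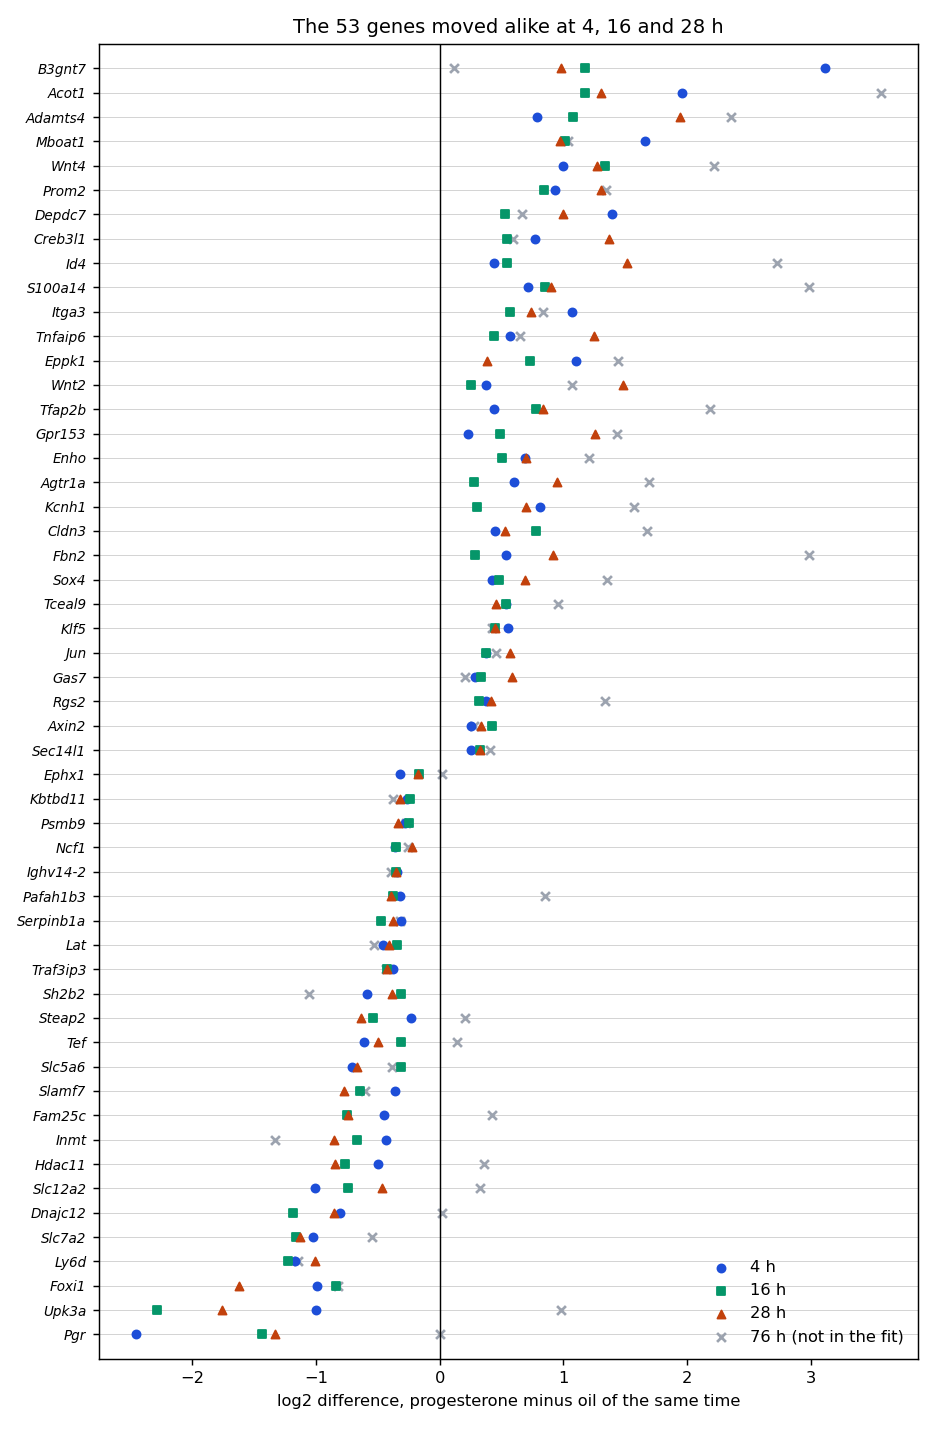
Log2 difference between progesterone and oil of the same time for each of the 53 genes moved alike, ordered by the pooled difference. Circles, squares and triangles are the differences at 4, 16 and 28 h (means of 3 arrays each), all on the same side of 0 by the way the genes were chosen; grey crosses are the differences at 76 h, which the choice did not use. For Pgr and several other falling genes the cross lies at or beyond 0, while for all 29 rising genes it lies above 0.

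The signalling genes among the rises were led by Wnt4, the secreted WNT ligand made by hormone-sensing cells. Wnt4 intensities were 66.8, 92.0 and 77.2 in oil and 159, 168 and 140.1 with progesterone at 4 h. They were 89.3, 98.2 and 78.9 in oil and 237, 227 and 206 with progesterone at 16 h, and 90.6, 85 and 103 in oil and 271, 143 and 289 with progesterone at 28 h. Every progesterone array was above every oil array of all 3 times, although 1 progesterone array of 28 h lay well below its 2 partners. The pooled log2 difference of Wnt4 was 1.20 ± 0.12 (SE), adjusted p = 7.03e-06 by limma, a 2.30-fold rise. Wnt2, a second ligand of the family, had intensities of 148, 119.9 and 134 in oil and 178, 194 and 151 with progesterone at 4 h and of 44.8, 43.4 and 80.1 in oil and 173, 116 and 169 with progesterone at 28 h. The groups did not overlap, but the large difference at 28 h came with oil values lower than those of 4 h, while progesterone values were like those of 4 h. Wnt2 gave 0.70 ± 0.17 (SE), adjusted p = 0.0321 in the pooled fit. Axin2, a target of WNT signalling that also restrains it, rose by a small and even amount (0.25 at 4 h, 0.42 at 16 h and 0.34 at 28 h, adjusted p = 0.00651), with intensities of 154 to 223 in oil and 211 to 271 with progesterone.

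Receptors and regulators of receptor signalling were also among the rises. The angiotensin II receptor gene Agtr1a lay at 206 to 439 (median 361) over the 9 oil arrays and 386 to 671 (median 519) over the 9 progesterone arrays, with a pooled difference of 0.61. The groups overlapped when the times were mixed and not within a time. The orphan receptor Gpr153 was higher by 0.23 at 4 h, 0.49 at 16 h and 1.26 at 28 h, the least even pattern after Wnt2 among the rises. Rgs2, which shortens signals of G-protein-coupled receptors, rose evenly (0.38 at 4 h, 0.32 at 16 h and 0.41 at 28 h, adjusted p = 0.00786). The potassium channel gene Kcnh1 rose by 0.60 and Enho, which encodes the secreted peptide adropin, by 0.63.

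Transcriptional regulators formed another group of rises. Id4, a helix-loop-helix inhibitor of basic helix-loop-helix factors, had intensities of 259, 243 and 273 in oil and 309.8, 359 and 386 with progesterone at 4 h. At 16 h they were 248, 294 and 211 in oil and 379, 349.9 and 363 with progesterone, and at 28 h 219, 228 and 177 in oil and 728, 467 and 608 with progesterone. All 9 progesterone arrays were above all 9 oil arrays, with by far the highest values at 28 h. The pooled difference of Id4 was 0.84 ± 0.14 (SE), adjusted p = 0.00213. The test of a difference between the times gave an adjusted p of 0.0645 (moderated F-test, limma).

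Sox4, a factor of the SOX family expressed in many progenitor cells, changed less but with little spread. Its intensities were 1011, 1072 and 1016 in oil and 1433, 1430.3 and 1295 with progesterone at 4 h, and 1189, 1194 and 1146 in oil and 1698, 1614 and 1622 with progesterone at 16 h. At 28 h they were 991, 973 and 1012 in oil and 1829, 1337 and 1688 with progesterone. No oil array reached the lowest progesterone array, and the pooled difference was 0.53 ± 0.06 (SE), adjusted p = 1.60e-05. Tceal9 belongs to the family of transcription elongation factor A-like genes, and it was the most even of the rises. It had 1765, 1651 and 1814 in oil and 2397, 2729.9 and 2456 with progesterone at 4 h, 1959, 1827 and 1869 in oil and 2594, 2934 and 2703 with progesterone at 16 h, and 1749.9, 1737 and 1724 in oil and 2742, 2089 and 2363 with progesterone at 28 h. The groups were apart at each time and over all 18 arrays, and the 3 log2 differences were 0.53 at 4 h, 0.54 at 16 h and 0.46 at 28 h. Tceal9 was 1 of only 5 genes moved alike that were called at each time on its own, the others being Mboat1, Slc12a2, Ly6d and Pgr. Tfap2b, which encodes an AP-2 factor, lay at 138 to 213 (median 183) over the 9 oil arrays and 221 to 372 (median 279) over the 9 progesterone arrays, again with no overlap, and rose by 0.68. Klf5, an epithelial zinc finger factor (0.48), the AP-1 subunit Jun (0.44) and Creb3l1, a factor held in the endoplasmic reticulum membrane until it is cleaved (0.90), rose as well.

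**Figure D2:**
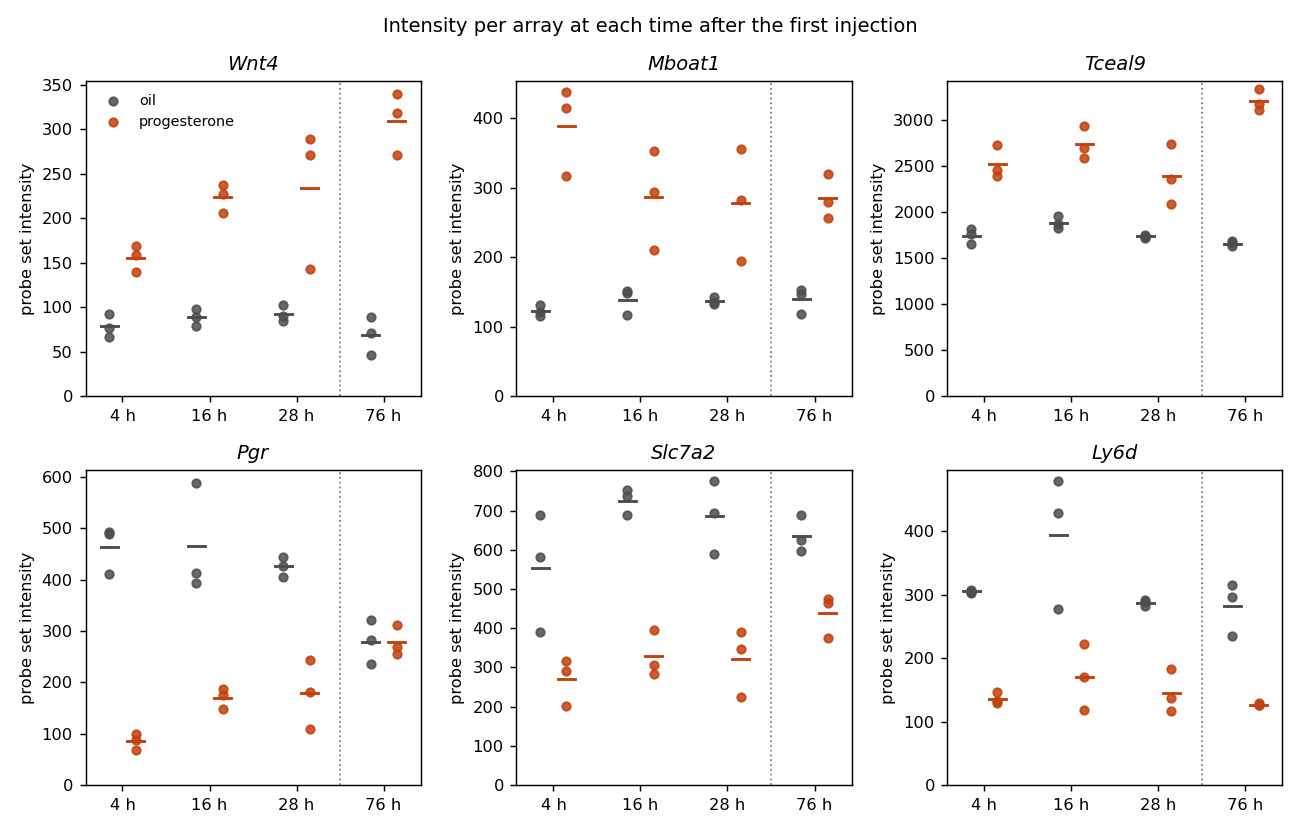
Probe set intensity on a linear axis from 0 for 6 genes moved alike, by time after the first injection; each point is 1 array (5 pooled mice), grey for oil and orange for progesterone, and the bars are means of 3 arrays. Left of the dotted line are the 3 early times, where the colours do not overlap within a time; to its right is 76 h, where the Pgr values of both groups overlap and those of the other genes remain apart.

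Enzymes of lipid and glycan metabolism gave some of the largest rises. Acot1, a cytosolic thioesterase that splits fatty acyl-CoA, had intensities of 129, 100.3 and 122 in oil and 566, 531 and 308 with progesterone at 4 h. It had 106, 139.7 and 118 in oil and 312, 276 and 234 with progesterone at 16 h, and 78.6, 140.5 and 107 in oil and 385, 159.7 and 289 with progesterone at 28 h. The groups were apart over all 18 arrays, but 1 progesterone array of 28 h, at 159.7, was close to the highest oil value. The pooled difference was 1.48 ± 0.17 (SE), adjusted p = 3.09e-05. Acot1 has a near-identical neighbour, Acot2, and the probes may read both. Mboat1, which puts acyl chains back on lysophospholipids, gave 131, 121 and 115 in oil and 438, 415 and 316 with progesterone at 4 h. Its values were 149, 151 and 118 in oil and 354, 295 and 211 with progesterone at 16 h, and 143, 135 and 133 in oil and 356, 194 and 283 with progesterone at 28 h. It was on average highest at 4 h and lower, yet above all oil arrays, at the later times. The pooled difference of Mboat1 was 1.22 ± 0.13 (SE), adjusted p = 1.57e-05. A second, dimmer probe set annotated to Mboat1 did not show this (-0.30, not called).

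B3gnt7, a glycosyltransferase that extends sugar chains with N-acetylglucosamine, had the largest pooled rise of the genes moved alike (1.76). Its intensities were 30.1, 20.5 and 25.6 in oil and 305, 222 and 152 with progesterone at 4 h. They were 31.2, 29.8 and 20.3 in oil and 68.1, 58.7 and 54.5 with progesterone at 16 h, and 19.6, 35.8 and 23.9 in oil and 59.6, 41.7 and 52.2 with progesterone at 28 h. The groups did not overlap at any time, and the values with progesterone at 16 and 28 h were far below those at 4 h. B3gnt7 was the 1 gene moved alike whose difference also changed between the times (adjusted p = 0.0375, moderated F-test), and its oil values lay below the array medians, where fold changes are imprecise.

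Genes of the epithelial surface, of cell adhesion and of the matrix made up most of the remaining rises. Prom2, a protein of membrane protrusions in epithelial cells, lay at 37.1 to 60.1 (median 49.2) over the 9 oil arrays and 71.7 to 164 (median 94.7) over the 9 progesterone arrays, without overlap (1.03 ± 0.15 (SE), adjusted p = 0.000935). Itga3, the alpha chain of a laminin-binding integrin, lay at 98.5 to 156 (median 134) over the 9 oil arrays and 161 to 362 (median 206) over the 9 progesterone arrays. It too was without overlap over the 18 arrays, and rose by 0.80. Eppk1, a linker of keratin filaments, was higher by 1.11 at 4 h, 0.73 at 16 h and 0.38 at 28 h, and its intensities were 242 to 407 in oil and 436 to 806 with progesterone. The tight junction gene Cldn3 rose by 0.59 and S100a14, of the S100 calcium-binding family, by 0.82, the latter at intensities near the floor of the arrays (4.83 to 25.5 in oil and 14.8 to 35.6 with progesterone).

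Adamts4, a protease that cleaves aggrecan and versican, was higher by 0.79 at 4 h, 1.08 at 16 h and 1.95 at 28 h and by 1.27 ± 0.24 (SE), adjusted p = 0.00582 in the pooled fit. Its oil values varied from 18.5 to 61.8 and overlapped the progesterone values of 4 h when times are mixed. Tnfaip6, a secreted hyaluronan-binding protein, rose by 0.75 and the microfibril component Fbn2 by 0.58. The last rises were Depdc7 (0.98), Gas7 (0.40) and Sec14l1 (0.30).

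Pgr, which encodes the progesterone receptor itself, had the largest fall. Its intensities were 489.9, 493 and 411 in oil and 87.8, 99.9 and 69.0 with progesterone at 4 h. They were 394, 413 and 588 in oil and 148, 186 and 175 with progesterone at 16 h, and 445, 406 and 427 in oil and 182, 109.7 and 244 with progesterone at 28 h. Every progesterone array was below every oil array, and the lowest values were those of 4 h. The pooled difference was -1.74 ± 0.16 (SE), adjusted p = 7.03e-06, and at the single times it was -2.45 at 4 h, -1.44 at 16 h and -1.33 at 28 h.

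Some of the falls were in genes of epithelial transport and its regulation. Slc12a2, the cotransporter that brings sodium, potassium and chloride into the cell, had intensities of 2737, 2712 and 2527 in oil and 1412, 1417 and 1164 with progesterone at 4 h. It had 3263, 3350.1 and 3426 in oil and 2237, 2027 and 1779 with progesterone at 16 h, and 2904, 3204 and 3234 in oil and 2541, 1909 and 2341 with progesterone at 28 h. The log2 differences were -1.0 at 4 h, -0.74 at 16 h and -0.47 at 28 h, and the groups were apart within each time. The pooled fit gave -0.74 ± 0.08 (SE), adjusted p = 9.83e-06, and a test of the change between times gave an adjusted p of 0.356. Slc7a2, which imports arginine and lysine, lay at 580.4, 689 and 389.6 in oil and 290.2, 316 and 203 with progesterone at 4 h. It lay at 689, 737 and 752 in oil and 394, 307 and 283 with progesterone at 16 h and at 590.3, 694 and 776 in oil and 391, 224 and 347 with progesterone at 28 h. The 3 log2 differences were nearly equal (-1.02 at 4 h, -1.16 at 16 h and -1.13 at 28 h), and the lowest oil array of 4 h lay within the progesterone range of the later times. Foxi1, a forkhead factor of ion-transporting epithelial cells, lay at 70.5 to 119 (median 93.4) over the 9 oil arrays and 26.3 to 60.5 (median 39.1) over the 9 progesterone arrays. Its groups did not overlap, and it fell by 1.15 on the log2 scale (adjusted p = 5.15e-05). The vitamin transporter Slc5a6 (-0.56) and the metalloreductase Steap2 (-0.47) also fell.

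Ly6d, a surface protein anchored by glycolipid and used as a marker within the luminal lineage, had 308, 305 and 304 in oil and 147, 129 and 132 with progesterone at 4 h. It had 428, 479 and 277 in oil and 222, 170.4 and 118 with progesterone at 16 h, and 282, 289 and 292 in oil and 138, 117 and 182 with progesterone at 28 h. All progesterone arrays were below all oil arrays, and the spread in oil was widest at 16 h. The pooled difference was -1.13 ± 0.12 (SE), adjusted p = 9.83e-06. Upk3a, a uroplakin of specialised epithelial membranes, fell by 1.68 on the log2 scale, with intensities of 106 to 251 in oil and 26.2 to 126 with progesterone. The gap was narrow at 4 h, where the lowest oil array had 131 and the highest progesterone array 126. The co-chaperone gene Dnajc12 lay at 217 to 307 (median 294) over the 9 oil arrays and 93.5 to 176 (median 146) over the 9 progesterone arrays. The deacetylase gene Hdac11 lay at 138 to 189 (median 158) over the 9 oil arrays and 85.2 to 113 (median 99.6) over the 9 progesterone arrays. Both were without overlap over the 18 arrays and fell by 0.95 and 0.70 on the log2 scale. Fam25c fell by 0.65, as did the methyltransferase gene Inmt, and Tef, a clock-controlled transcription factor, by 0.47.

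Several of the smaller falls were in genes of immune cells. Lat, the linker of T-cell receptor signalling, lay at 834 to 1119 (median 890.3) over the 9 oil arrays and 581 to 869 (median 704) over the 9 progesterone arrays, and Slamf7, a receptor of plasma and natural killer cells, at 56.4 to 95.0 in oil and 38.1 to 61.3 with progesterone. Lat differed by -0.46 at 4 h, -0.34 at 16 h and -0.41 at 28 h, and Slamf7 by -0.36 at 4 h, -0.64 at 16 h and -0.77 at 28 h. Traf3ip3 (-0.41), the NADPH oxidase subunit Ncf1 (-0.31), the immunoproteasome subunit Psmb9 (-0.29) and an immunoglobulin probe set annotated to Ighv14-2 (-0.35), which may read related segments, were lower by similar amounts at each time. Lymphocyte markers were lower in the same arrays. Their summed intensity was 28628 to 32993 in oil and 22432 to 31665 with progesterone at 4 h, 31173 to 34712 and 25534 to 29484 at 16 h, and 31532 to 39269 and 25592 to 32373 at 28 h. These sums were apart at 16 h and overlapped at 4 and 28 h. With a lymphocyte score as a covariate, 15 of the 53 genes moved alike were still called, 5 rising and 10 falling. All 53 kept their direction, with a median size of 0.49 in place of 0.63. The remaining small falls were Sh2b2 (-0.43), Serpinb1a (-0.39), Pafah1b3 (-0.36), Kbtbd11 (-0.27) and the epoxide hydrolase Ephx1 (-0.22).

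The promoters of the genes moved alike were read for the half-site that the progesterone receptor shares with other steroid receptors, AGAACA or its reverse complement TGTTCT, on both strands. Windows ran from 250 bases before to 50 after each RefSeq start (build GRCm38.p6, the C57BL/6J reference, not the BALB/c genome), and 36 of the 53 genes had 1 or more. A half-site stood in 8 of their 43 windows (18.6%), in 3 of 23 for rising genes (13.0%) and in 5 of 20 for falling genes (25%). Among all genes tested it stood in 1627 of 12750 windows (12.8%), and in 6233 of 32851 windows of the whole table (19.0%). A pair of facing half-sites 3 bases apart, the full element, was in none of the 43 windows and in 3 of all windows. A match is a run of letters and no measured site. The 250 bases before the start are shown for 3 genes whose groups did not overlap over the 18 arrays and whose half-site, in capitals, lies there. They are Acot1 (chr12:84009252-84009501, plus strand), Tceal9 (chrX:136244830-136245079, plus strand) and Hdac11 (chr6:91156565-91156814, plus strand).
Acot1: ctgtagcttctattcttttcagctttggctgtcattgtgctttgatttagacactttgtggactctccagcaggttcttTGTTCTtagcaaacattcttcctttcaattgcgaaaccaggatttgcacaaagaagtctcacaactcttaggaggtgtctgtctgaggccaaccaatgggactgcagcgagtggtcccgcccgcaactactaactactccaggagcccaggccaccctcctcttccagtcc
Tceal9: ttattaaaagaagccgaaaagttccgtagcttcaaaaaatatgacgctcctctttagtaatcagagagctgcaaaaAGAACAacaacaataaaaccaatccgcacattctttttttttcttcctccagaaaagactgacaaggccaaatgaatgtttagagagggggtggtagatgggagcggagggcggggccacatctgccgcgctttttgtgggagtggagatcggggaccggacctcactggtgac
Hdac11: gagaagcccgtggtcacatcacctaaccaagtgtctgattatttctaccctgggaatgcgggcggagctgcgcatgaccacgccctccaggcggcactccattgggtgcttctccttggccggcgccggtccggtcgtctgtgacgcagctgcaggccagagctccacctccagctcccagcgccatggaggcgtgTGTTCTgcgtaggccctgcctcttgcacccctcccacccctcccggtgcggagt

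In Acot1 and Tceal9, which rose, the half-site lies far from the start, and in Hdac11, which fell, near it. The other 5 windows with a half-site belong to Axin2, which rose, and to Ephx1, Foxi1, Ncf1 and Tef, which fell.

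Beyond the genes moved alike, the lists show which groups of genes the pooled response touched. Counts are of called members, to be read against 2.24% of all genes, and medians against -0.03 over all genes. Of the 12352 genes, 46 were called without 28 h and 384 with centred arrays. With a covariate, 23 were called for the lymphocyte score and 495 for a muscle score. At an unadjusted p under 0.05, 2039 passed with all 3 times, 1679 without 28 h and 580 with the lymphocyte score. Of 15 tested progesterone-responsive mammary genes, Wnt4 and Id4 rose and Pgr and the luminal factor Gata3 fell (-0.47, adjusted p = 0.00355), with a median of 0.07. The list was drawn from earlier work on this tissue, and other members did not pass. Tnfsf11, the gene of RANKL, had intensities of 35.8, 41.0 and 56.5 in oil and 44.3, 37.5 and 64.4 with progesterone at 4 h and 67.0, 67.7 and 36.1 in oil and 64.5, 67.9 and 80.4 with progesterone at 28 h. Its groups overlapped at both times (pooled 0.08, adjusted p = 0.869). Elf5, the alveolar ETS factor, had -0.59 with an adjusted p of 0.0516. The cyclin gene Ccnd1 (0.15), the estrogen receptor gene Esr1 (0.13) and Csn2 (-0.90) did not pass either. Areg and Prlr are not analysed here.

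Of 11 tested ligands of the WNT and EGF families, Wnt2 and Wnt4 rose, none fell and 10 had a positive difference (median 0.16). Among 15 ion and solute transport genes, Cacna1g (1.24), a calcium channel, and Ano1 rose. Slc12a2, Slc7a2, Foxi1 and the chloride channel regulators Clca3a2 (-1.41) and Clca3a1 (-0.89), close copies that the probes may not tell apart, fell (median 0.07 over the 15). Of 24 luminal genes, Cldn3 rose and Ly6d, Gata3 and Tspan1 fell (median -0.06). Tspan1, a tetraspanin, had differences of -1.29 at 4 h, -2.16 at 16 h and -0.43 at 28 h, and a progesterone array lay above the lowest oil array at 28 h.

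Basal and myoepithelial genes gave 5 rises and no falls among 22 tested, with a median of 0.14. The keratin genes Krt17 (1.65), Krt15 (0.91), Krt5 (0.52) and Krt14 (0.42) and the smooth muscle actin gene Acta2 (0.22) rose. Krt5 had 236, 200.4 and 204 in oil and 206, 204 and 195 with progesterone at 4 h, 200.3, 198 and 181 in oil and 263, 355 and 331 with progesterone at 16 h, and 173, 200.3 and 198 in oil and 503, 305 and 321 with progesterone at 28 h. The groups overlapped at 4 h and were apart at the later times. Without 28 h no basal gene was called by limma, although 5 were higher at an unadjusted p under 0.05, and the median was 0.07.

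Clock genes gave 1 rise and 6 falls among 16, with a median of -0.25. Npas2 rose (1.13, adjusted p = 0.0372), while Per1 (-0.84), Dbp (-0.82), Ciart (-0.63), Hlf (-0.54), Tef and Nr1d2 (-0.30) fell. The list had medians of -0.28 (4 h), -0.21 (16 h) and -0.29 (28 h). Dbp, an output gene of the clock, had 2383, 3165 and 2179.7 in oil and 1035, 1545 and 1317 with progesterone at 4 h, 914, 1363 and 1994 in oil and 552, 831 and 1219 with progesterone at 16 h, and 2479, 2639 and 2587 in oil and 1306, 1360.0 and 1945 with progesterone at 28 h. Its groups were apart at 4 and 28 h and overlapped at 16 h, where the oil arrays themselves ranged widely. Dbp was called in the pooled fit (adjusted p = 0.00384) and at no single time. Without 28 h, 1 clock gene was called. With quantile normalization the counts were 2 up and 5 down.

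Among 21 glucocorticoid and steroid response genes, the metallothionein Mt2 rose and Per1, Ddit4 and Tsc22d3 fell (median -0.10). Mt2 had 763, 657 and 747 in oil and 1306, 1510.1 and 1333 with progesterone at 4 h, 769, 902 and 979.8 in oil and 1384, 1379 and 1351 with progesterone at 16 h, and 642, 882 and 1406 in oil and 1480.2, 1684 and 1222 with progesterone at 28 h. It was apart at 4 and 16 h, and at 28 h an oil array lay within the progesterone range, so that Mt2 was called (0.74 ± 0.11 (SE), adjusted p = 0.000746) but not moved alike. Ddit4 and Tsc22d3, both known glucocorticoid targets, had differences of -0.19 at 4 h, -0.84 at 16 h and -0.79 at 28 h, and of -0.16 at 4 h, -0.72 at 16 h and -0.84 at 28 h, in that order. Fkbp5, another such target, did not pass (-0.19, adjusted p = 0.563).

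Of 17 immediate early genes, Egr2 (1.12), Egr1 (0.78) and Jun rose and none fell, with a list median of 0.08. Among 25 matrix genes, Col6a2 (0.34), Col6a3 and Ccn1 (0.45) rose and Ccn2 fell. The matrix median was 0.23 when pooled, but 0.06 at 4 h, 0.04 at 16 h and 0.57 at 28 h, and no member was called by limma without 28 h, where 3 were higher and 2 lower at an unadjusted p under 0.05. Summed matrix intensity in oil was 89945 to 98734 at 4 h, 83942.5 to 94252 at 16 h and 61540 to 69823 at 28 h. With progesterone it was 92707 to 100458 at 4 h, 89614 to 97231.5 at 16 h and 78744 to 90291 at 28 h. Of 18 lymphocyte markers, Ccr7 (-0.40), Cd79b (-0.36), Coro1a (-0.34), Cd2 and Cd52 fell and none rose. Differences were negative for 17 of the 18, with medians of -0.30 at 4 h, -0.26 at 16 h and -0.27 at 28 h. Without 28 h, 1 lymphocyte marker was called, while the median was -0.31.

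The remaining lists had 2 called members or fewer each. Plasma cell genes gave 1 rise, the proteoglycan gene Sdc1 (0.43), which epithelial cells also express, and 1 fall, an immunoglobulin kappa probe set (-1.22), among 10. Myeloid markers gave 1 rise (Cd14, 0.37) and 1 fall (Laptm5) among 18. Interferon response genes gave 2 falls among 16, Psmb8 (-0.33) and Psmb9. Unfolded protein response genes gave 2 falls among 18, Dnajc12 and Herpud1 (-0.21). Single rises were those of Mboat1 among 18 genes of fatty acid and triglyceride synthesis, Acot1 among 15 PPAR and fatty acid oxidation genes, Aldh3a1 among 14 detoxification genes, and Hmgcs1 (0.34) among 17 cholesterol synthesis genes. Csn3 (0.34) was the single rise among 10 milk genes and Wfdc12 (0.99) among 10 acute phase genes. No member was called by limma among 14 white adipocyte, 8 brown adipocyte, 19 skeletal muscle, 16 endothelial and 13 Notch pathway genes. At an unadjusted p under 0.05, 4 white adipocyte genes, 1 brown adipocyte gene, no muscle gene, 1 endothelial gene and 1 Notch pathway gene passed. Of all 12352 genes, 2039 did so.

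The 33 mitosis and 24 DNA replication genes also had no member called by limma, at times before the proliferative phase. Their medians were -0.34 and -0.15, with a negative difference in 30 of the 33 and 20 of the 24, and at an unadjusted p under 0.05 19 mitosis genes were lower and 1 higher, while 8 replication genes were lower. With a muscle score as a covariate 8 mitosis genes and 1 replication gene were called lower, and with centred arrays 2 mitosis genes. The mitosis median was 0.06 at 4 h, -0.44 at 16 h and -0.62 at 28 h, against 1.42 at 76 h. Summed mitosis intensity in oil was 3915 to 5583 at 4 h and 5144 to 5547 at 16 h. At 28 h it was 6335 to 6972 in oil and 3576 to 5467 with progesterone. Without 28 h no gene of either list was called by limma, and the medians were -0.15 (mitosis) and -0.13 (replication). At an unadjusted p under 0.05, 2 mitosis genes were then lower and 1 higher, and no replication gene passed. Skeletal muscle markers had medians of opposite sign at the early times, -0.52 (4 h), -0.68 (16 h) and 0.78 (28 h). With a muscle score as a covariate all 53 genes moved alike were still called.

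The counts of many lists were smaller without 28 h, when 46 of all 12352 genes were called in place of 277. Transport genes then gave no rise and 4 falls, immediate early genes 1 rise, steroid response genes 1 rise and 1 fall, the ligands 1 rise and unfolded protein response genes 1 fall. Luminal genes gave 1 rise and 4 falls and progesterone-responsive genes 2 rises and 3 falls. With all 3 times these lists had 3 and 2 falls, so their counts were not smaller. No plasma cell, myeloid, interferon response, milk, cholesterol synthesis or acute phase gene was called by limma. At an unadjusted p under 0.05, 2 plasma cell, 6 myeloid, 5 interferon response, 3 milk, 3 cholesterol synthesis and 4 acute phase genes passed. Of all 12352 genes, 1679 did so. The medians of the transport and the progesterone-responsive lists, both 0.07 with all 3 times, were -0.07 without 28 h.

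Fewer list members were also called with the lymphocyte score, which was lower with progesterone, as a covariate. Of all 12352 genes, 23 were then called. No basal, immediate early, steroid response, matrix, milk, detoxification, cholesterol synthesis, acute phase, plasma cell, myeloid or interferon response gene was called by limma. At an unadjusted p under 0.05, 580 of all 12352 genes passed. These included 3 basal, 5 immediate early, 12 steroid response and 6 matrix genes. So did 1 milk, 1 detoxification, 2 cholesterol synthesis and 2 acute phase genes pass, and no plasma cell, myeloid or interferon response gene. Clock genes gave 1 fall, luminal genes 2 falls, transport genes 5 falls, the ligands 1 rise and unfolded protein response genes 1 fall. Progesterone-responsive genes gave 1 rise and 2 falls. The basal median was 0.07 and the clock median -0.29. With the muscle score, 10 matrix genes rose, 8 lymphocyte markers fell, and plasma cell genes gave 1 rise and 5 falls. With centred arrays plasma cell genes gave 3 falls and no rise.

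**Figure D3:**
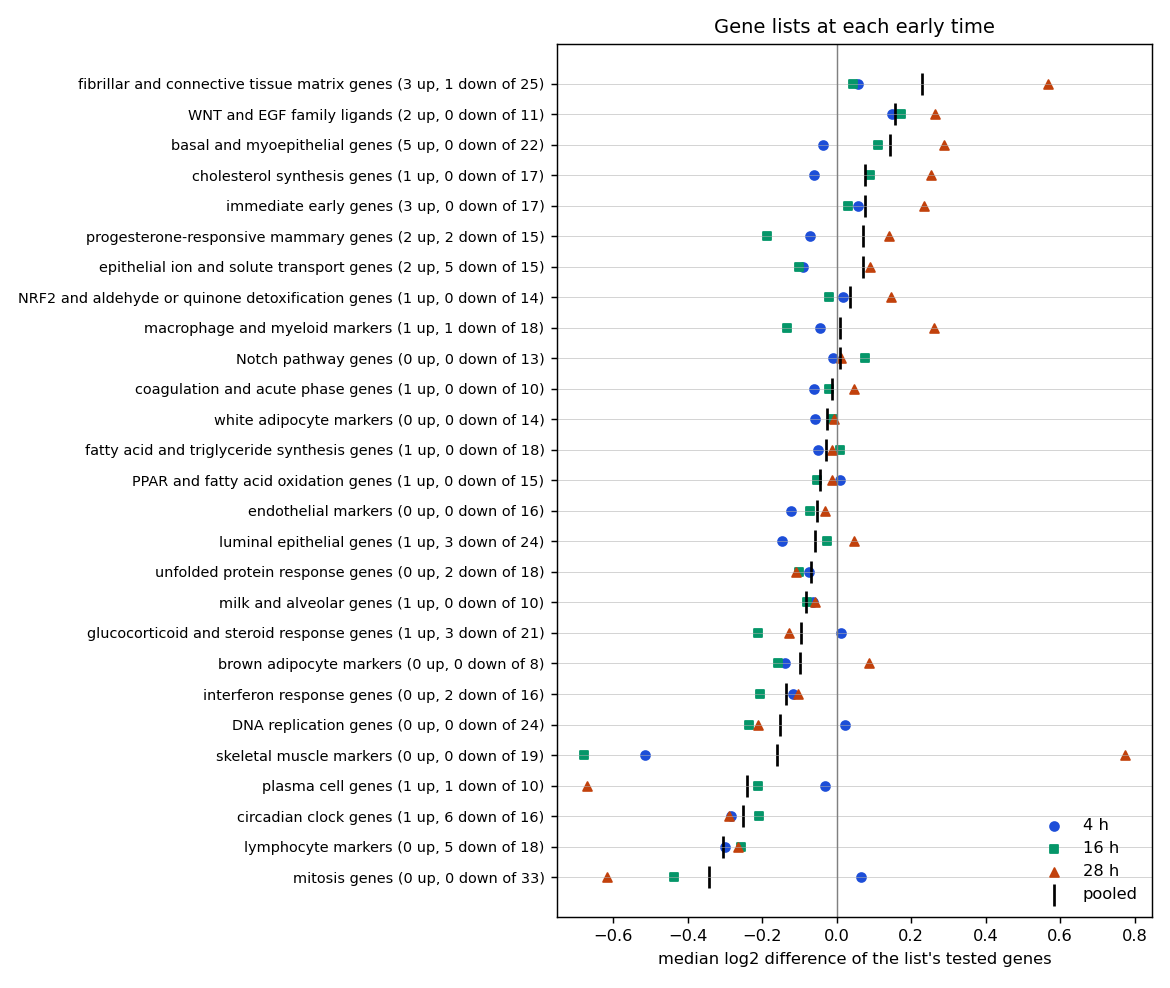
Median log2 difference, progesterone minus oil, over the tested members of each of 27 gene lists at 4 h (circles), 16 h (squares) and 28 h (triangles), with the pooled median as a black bar; the number of called members in each direction stands beside the name. Lymphocyte markers and clock genes lie left of 0 at all 3 times. So do plasma cell, interferon response, unfolded protein response, endothelial, milk and white adipocyte genes. Over all genes the medians were -0.01 at 4 h, -0.07 at 16 h and 0.003 at 28 h. At 16 h the endothelial, milk and white adipocyte medians (-0.07, -0.08 and -0.01) were close to or above that of all genes. Matrix, muscle and mitosis genes are spread between the times.

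For 18 genes (0.146%) the difference itself changed between 4, 16 and 28 h by the moderated F-test, and 5 of these were also among the 277. For these 5 the pooled value averages unlike differences. Aldh3a1, an aldehyde dehydrogenase, had 21.8, 35.8 and 41.1 in oil and 579.8, 418 and 374 with progesterone at 4 h. It had 30.9, 26.2 and 19.1 in oil and 60.6, 49.0 and 37.8 with progesterone at 16 h, and 22.9, 14.2 and 21.1 in oil and 27.0, 20 and 35.2 with progesterone at 28 h. The groups were far apart at 4 h, closer at 16 h and overlapped at 28 h. Krt17 ran the other way, with 26.8, 25.5 and 32.5 in oil and 38.6, 31.2 and 27.6 with progesterone at 4 h and 18.4, 24.8 and 26.1 in oil and 213, 104 and 134 with progesterone at 28 h. It overlapped at 4 h and was apart at 16 and 28 h.

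Ccn2, a matricellular protein gene, had 573, 555 and 549.7 in oil and 499, 641 and 514 with progesterone at 4 h, 765, 731 and 838 in oil and 385, 259 and 314 with progesterone at 16 h, and 954, 1030.0 and 1039.7 in oil and 234, 249 and 349 with progesterone at 28 h. It overlapped at 4 h and was lower with progesterone at the later times, when the oil values were also higher than at 4 h. Cd248, a marker of stromal cells around vessels, differed by -0.06 at 4 h, 0.51 at 16 h and 1.49 at 28 h. Its oil values at 28 h, 278, 318 and 333, were lower than the 889, 809 and 721 of 4 h, while its progesterone values overlapped between the times.

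**Figure D4:**
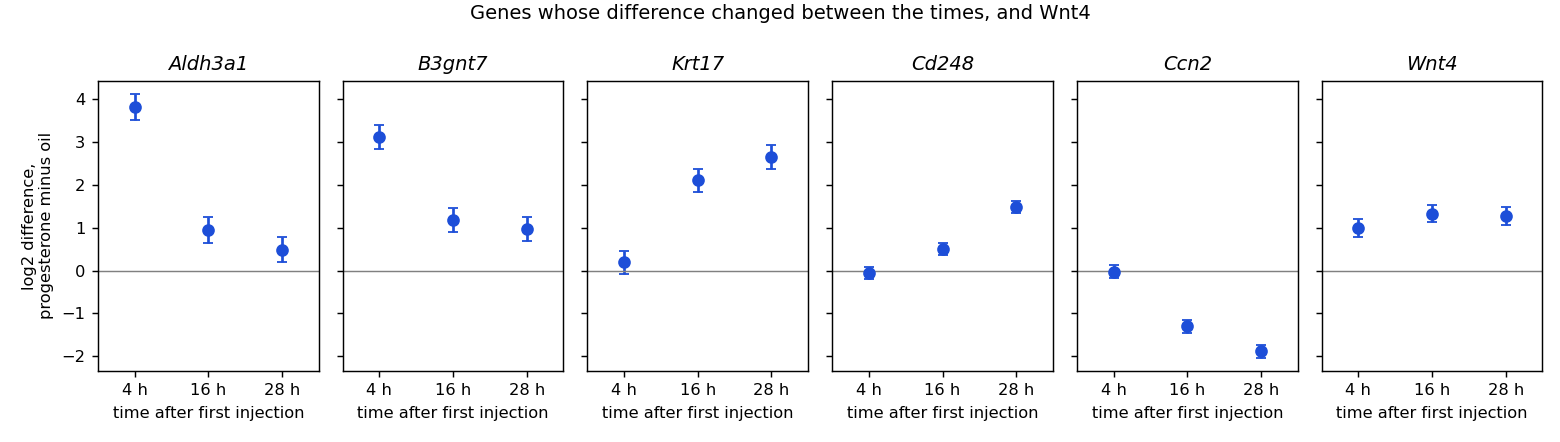
Log2 difference, progesterone minus oil, at 4, 16 and 28 h for the 5 called genes whose difference changed between the times and, for comparison, Wnt4; points are means over 3 arrays a group and bars are 1 SE of the difference from the model. Aldh3a1 and B3gnt7 are highest at 4 h, Krt17 and Cd248 at 28 h, Ccn2 is near 0 at 4 h and lowest at 28 h, and Wnt4 lies between 0.99 and 1.33.

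How far 1 time can be read from the other 2 was measured by leaving each out in turn. Of 193 genes called from 16 and 28 h, 146 (75.6%) had the same direction at 4 h, which was true of 53.7% of all genes, and 45 (23.3%) were without overlap in that direction, against 11%. Of 45 genes called from 4 and 28 h, 39 (86.7%) had the same direction at 16 h and 28 (62.2%) were without overlap, against 11.8% of all genes. Of 46 called from 4 and 16 h, 43 (93.5%) had the same direction at 28 h and 29 (63.0%) were without overlap, against 9.16%. The background shares for the same direction were 57.8% at 16 h and 61.6% at 28 h. The genes shared by 16 and 28 h thus had the smallest share in the same direction at 4 h, where their median was 0.14 against 0.60 at the other times. Across all genes the differences of 16 and 28 h correlated at r = 0.34, those of 4 and 28 h at 0.18 and those of 4 and 16 h at 0.14. These are descriptions over genes, which are not independent.

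The oil arrays of 28 h enter the last of these readings. With the oil arrays of 4 and 16 h in their place, the progesterone arrays of 28 h differed in the early direction for all 53 genes moved alike, with a median of 0.54 in place of 0.74. They lay outside the range of those 6 oil arrays for 26 of the 53. Wnt2 is the clearest exception in size, with 0.08 in place of 1.49. Without the arrays of 28 h, 46 genes were called, and 27 of the 53 were among them. The 26 others kept their direction, which was fixed in advance, since genes moved alike have the same sign at 4 and 16 h. They were Adamts4, Agtr1a, Axin2, Creb3l1, Depdc7, Enho, Fbn2, Gas7, Gpr153, Kcnh1, Rgs2, S100a14, Sec14l1 and Wnt2 of the rises and Ephx1, Ighv14-2, Kbtbd11, Lat, Ncf1, Pafah1b3, Psmb9, Slamf7, Slc5a6, Steap2, Tef and Traf3ip3 of the falls. Without 4 h 34 of the 53 were still called, and without 16 h 25. The 20 called under each of these 3 omissions included Wnt4, Acot1, Mboat1, Sox4, Tceal9, Pgr, Ly6d, Slc7a2, Slc12a2 and Foxi1.

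At 76 h, when 3533 genes were called in a fit of the 6 arrays of that time (28.6%), the early rises and the early falls read differently. All 29 rising genes moved alike were higher at 76 h, 25 of them called, with a median of 1.34 against 0.68 early. Id4 had 261, 236 and 227 in oil and 1756, 1571 and 1481 with progesterone, and Acot1 had 104, 89.7 and 159 in oil and 1455, 1421 and 1195 with progesterone. Both were far above their early progesterone values. B3gnt7, by contrast, had 17.1, 20.2 and 25.3 in oil and 29.5, 15.7 and 23.8 with progesterone, and its groups overlapped. Of the 24 falling genes, 14 were lower at 76 h and 9 of these were called, while 4 were called in the opposite direction, namely Upk3a (0.98), Pafah1b3 (0.85), Hdac11 (0.36) and Slc12a2 (0.32).

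Slc12a2 had 3130.0, 2713 and 2568 in oil and 3604, 3459 and 3432 with progesterone, so that the progesterone arrays were the higher ones. Pgr had 321, 235 and 282 in oil and 312, 255 and 269 with progesterone, with overlapping groups (adjusted p = 0.983), and its oil values were lower than those of the early times. Ly6d had 297, 235 and 316 in oil and 126, 129.6 and 125 with progesterone, a difference of -1.14 beside -1.13 early. Over all 277 called genes, 227 had the early direction at 76 h, 162 (58.5%) were called in it and 24 in the opposite one. Gata3, which fell early, was higher at 76 h (1.18, adjusted p = 5.80e-05). Tnfsf11, not called early, had 35.9, 49.1 and 48.4 in oil and 358, 361 and 361 with progesterone.

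**Figure D5:**
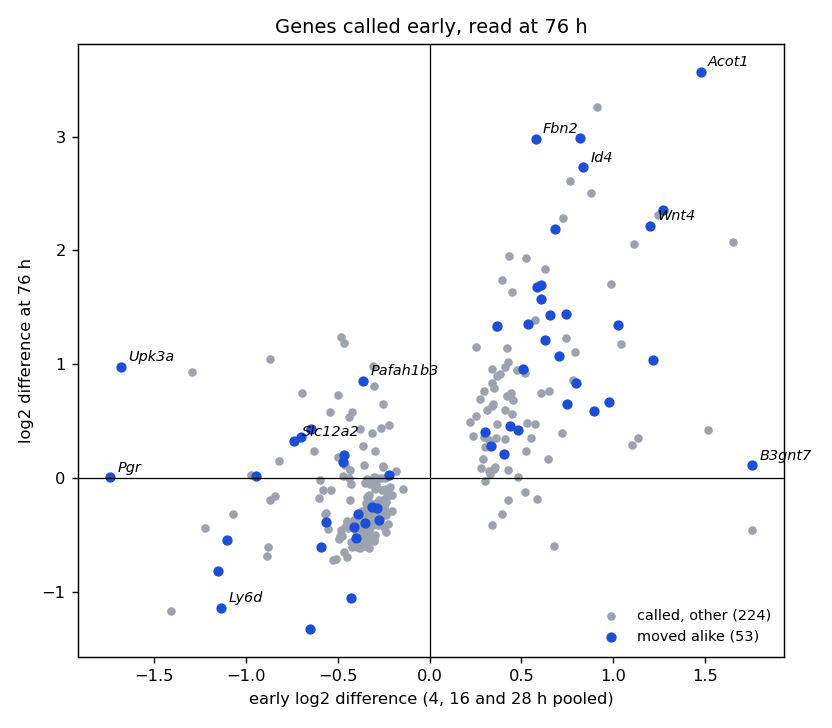
Pooled early log2 difference (x axis) against the log2 difference at 76 h (y axis) for the 277 genes called early, with the 53 moved alike in blue and the other 224 in grey; the 76 h arrays are not part of the early fit. Blue points on the right all lie above 0 at 76 h, and those on the left lie on both sides of it, with Pgr at 0.

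Other probe sets of the same genes gave a second reading from the same RNA. Of the genes moved alike, 23 had 34 other probe sets above the filter. The direction was the same for 33 of them, 14 were called in it and none in the opposite one. Wnt4 had a second set at 0.82 and Slc12a2 had others at -1.07 and -1.0. Id4 had others at 0.71 and 0.80, of which the first was lower with progesterone at 4 h (-0.25). Leaving out each of the 18 arrays in turn, 45 of the 53 genes kept their call in every fit, 26 rising and 19 falling. Wnt2 kept its call in 11 of the 18 fits, Ncf1 and Steap2 in 12, and Fbn2 and S100a14 in 13. Pafah1b3 kept it in 14, and Ephx1 and Psmb9 in 15.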

How the data were processed

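RNA of mouse mammary glands was labelled and hybridized by the authors, per the labels' protocols. The deposited values are linear intensities, 1 for each of 45101 probe sets on each array. Neither the software that made them nor its normalization is given in the sources used here. The medians of the arrays were near equal (log2 span 0.16), so the values were used as deposited. Values under the 10th percentile of the table (7.38) were raised to it and log2 was taken. Of the probe sets, 34945 carry 1 symbol in the 2016 annotation of the platform, 932 several and 9160 none, and those with 1 were used. The 64 control probe sets were left out. A probe set had to lie above its array's median on at least 3 of 24 arrays, and a gene was read from the probe set with the highest mean.

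Progesterone was compared with oil over 18 arrays with time as a block (limma 3.58.1, R 4.3.3, intensity trend, 14 residual degrees of freedom, two-sided, Benjamini-Hochberg over all genes). Single times and the moderated F-test used a mean per group of the same arrays (12 residual degrees of freedom), and 76 h was fitted alone (4 residual degrees of freedom). Errors are SE from the model. In the fit with time as a block they also take in changes of the difference between the times. With group means, whose error leaves these changes out, 353 genes were called in place of 277. A depth in reads does not exist for arrays, and their number limits the precision.

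The members, the 27 gene lists and the tests were chosen with earlier results of these data known. Genes were named by rule, as the 12 largest rises and 12 largest falls moved alike, up to 3 called members of each list, the 6 called genes with the smallest p for a change between times, 2 genes on each side of the threshold (the immunoglobulin segment just outside it is not described) and 13 genes always. The other genes moved alike, further called list members and the markers of cell types were named after their values were seen. Alternatives changed the filter, floor, pseudocount, normalization, probe set rule, variance model, array weights and threshold, left out each array or time, used all 24 arrays, a muscle score or a replicate block. The lymphocyte score, and the alternatives of the readings at a left-out time, were added after the data had been seen. The main fit did not pair arrays by replicate number. Deviations of same-numbered arrays correlated at -0.018 to 0.35 and above 0.1 in 4 of 9 pairs. With a replicate block 384 genes were called in place of 277. Whether same-numbered arrays shared a batch was not tested. Promoter windows were taken from a RefSeq table of build GRCm38.p6.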

Additional observations from a re-analysis of the deposited data

Results flagged for a closer look

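Among the 277 genes called in the pooled early comparison, 5 had a difference between progesterone and oil that changed between 4, 16 and 28 h by the moderated F-test of limma, adjusted over all genes. The adjusted p was 0.0375 for B3gnt7, 0.0165 for Krt17, 0.00187 for Ccn2, 0.00208 for Aldh3a1 and 0.00776 for Cd248. B3gnt7 and Aldh3a1 had their largest difference at 4 h, and Krt17, Ccn2 and Cd248 at 28 h. No array was tested for standing apart within a group, since each group has 3.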

How the results depend on the processing

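None of the 277 called genes had the opposite sign in any of 40 alternative fits that tested it. The sign could not change where only the threshold, the intensity trend or the robust variance was altered. Nor could it with group means or a replicate block, which give the same estimate in this balanced design. For genes with 1 sign at all 3 times, leaving out a time could not change it either. The remaining fits reused most of the same arrays. The count of genes called in the pooled comparison, 277, was 143 without a filter on low values, 663 with array weights, 614 in a fit of all 24 arrays, 73 at an adjusted p under 0.01, 577 at one under 0.10, and 69 with a log2 difference of at least 0.58 besides. It was 45 without 16 h, 46 without 28 h, 495 with a muscle score and 23 with a lymphocyte score as covariate, and 117 to 465 when 1 array was left out. It moved by over 1.5 times without arrays 2 (156) of oil at 4 h, 1 (141), 2 (164) or 3 (465) of progesterone at 4 h, 1 (138) or 2 (181) of oil at 16 h, 2 (126) of progesterone at 16 h, 1 (128) or 2 (126) of oil at 28 h, or 1 (117) of progesterone at 28 h. The count moved alike, 53, was 31 with the added log2 limit of 0.58, 149 without 4 h, where 2 times had to be without overlap in place of 3, and 15 with the lymphocyte score. Without 1 array it was 46 to 136. It was over 1.5 times as high, with fewer arrays having to be apart, without array 1 of oil at 4 h (101), 3 of progesterone at 4 h (136), 3 of oil at 28 h (99) or 3 of progesterone at 28 h (83). The replicate block gave 384 called genes, 54 of them moved alike, and all 53 kept their call.

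The count of genes that changed between times, 18, was the least stable. It was 4 without a filter, 5 with quantile normalization, 7 with each probe set alone, 5 without an intensity trend, 3 at an adjusted p under 0.01, 44 at one under 0.10, 0 by limma without 4 h (595 at an unadjusted p under 0.05), 4 without 28 h, 7 with the muscle score, 36 with the lymphocyte score, and 3 to 69 when 1 array was left out. With array weights it was 5234, where the weights of 18 arrays over 6 group means ran from 0.245 to 5.78. The share called at 76 h in the early direction was 45.1% when 76 h was fitted with all 24 arrays. Without a filter, 88.1% of genes had the same direction at a left-out 4 h and 95.8% at a left-out 16 h. Except where stated, the cause was not tested. Intensities near the array floor limit the fold changes of dim genes such as S100a14 and B3gnt7.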
